A study of Mus musculus with 4 samples.

Results

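The forkhead genes encode transcription factors that share a DNA-binding fold, the winged helix, and carry the symbol Fox, a letter for the subclass and a number. The members described here are all genes whose probe accession is named by RefSeq (assembly GRCm38.p6) with such a symbol, with a letter from a to s, which leaves out the unrelated Foxred genes. There were 39 such genes with 49 probes, of 18353 named genes and 41174 non-control probes on the array. RefSeq holds 44 symbols of this form, and the 5 without a matched probe were Foxi3, Foxl1, Foxn4, Foxr1 and Foxr2. Of the 39 genes, 8 had several probes, 18 in all. Each gene is given by its probe with the highest mean signal over the 4 arrays, called its brightest probe.

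RNA came from endothelial cells of adult mouse hearts, and each sample was hybridised to an Agilent 1-colour array. There were 2 samples labelled G2-EC-KO, described as a Gata2 knock out, and 2 control samples, described as wild type. The labels name no promoter or Cre for the deletion, no age beyond adult and no pooling, and do not say whether replicates came from separate animals, so p-values measure only the spread between these samples. The number of arrays, 2 in each group, limits the precision of every value. Signals are given as log2 of the processed signal relative to the 75th percentile of the array, so that 0 is the 75th percentile, and a log2 change is the G2-EC-KO mean minus the control mean.

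Forkhead factors bind short sites around the letters TAAACA and act at different points of vessel biology. FoxC and FoxF factors are needed to form arteries, lymphatic valves and the early vasculature in mouse embryos. FoxO factors restrain growth and division of endothelial cells, and growth factor signalling through PI3K and AKT drives them out of the nucleus. FoxM1 works the other way, as an activator of genes for G2 and mitosis.

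Gata2 itself, the targeted gene, did not read lower in samples labelled G2-EC-KO. Gata2 probe A_51_P516625 read 2.17 and 2.46 in the G2-EC-KO pair, against 1.86 and 2.17 in the control pair, and its change was 0.29 (SE 0.18; limma, adjusted p = 0.586). Gata2 probe A_52_P233441 read 1.72 and 1.91 in the G2-EC-KO pair, against 1.54 and 1.75 in the control pair. Whether these probes lie in the deleted part is not given in the sources used here. Control replicate 2 stood apart from the other 3 arrays in sex-linked transcripts: 6 of 6 Y-linked probes were well above background there and 0 on the others, while Xist probe A_51_P145453 read 3.96 and 3.94 in the G2-EC-KO pair, 3.93 on control replicate 1 and -7.82 on control replicate 2. Log2 changes without that array are therefore given beside the leading members. Of 12 endothelial markers, including Pecam1, Cdh5 and Kdr, 12 were well above background on all arrays. So were 12 of 12 cardiomyocyte, 10 of 10 fibroblast, 10 of 10 pericyte and smooth muscle and 9 of 10 macrophage and monocyte markers, and in bulk RNA fewer cells of a type cannot be told apart from less RNA per cell.

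Most of the family was measurable in these cells. Of the 39 genes, 25 (64.1%) were well above background on all 4 arrays, against 71.5% of all named genes, and 10 (25.6%) were so on 0 arrays, against 22.3%. By array, 27 and 27 forkhead genes cleared the background in the G2-EC-KO pair, against 26 and 28 in the control pair. A gene was tested when its brightest probe was well above background on at least 2 arrays whatever their group, which 27 genes (69.2%) met, against 74.2% of all named genes. The 2 tested genes that were not well above background on every array were Foxe3 and Foxi2, which missed it on control replicate 1.

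No forkhead gene differed between G2-EC-KO and control past an adjusted p of 0.05. The count was 0 of 27 genes and 0 of 36 probes (limma, Benjamini-Hochberg over 26893 probes), where 0.00372% of all probes tested passed. The smallest adjusted p of the family was 0.389, and without control replicate 2 it was 0.754, again with 0 genes past the threshold. At an unadjusted p under 0.05, 2 genes were higher, Foxp2 and Foxm1, and 2 were lower, Foxp1 and Foxo4. That is 14.8% of the 27, against 8.18% of all named genes tested, 6.13% higher and 2.06% lower. Values of the groups did not overlap for 10 of the 27 genes (37.0%), 4 higher and 6 lower, against 47.1% of all named genes tested, 30.4% higher and 16.7% lower. Foxn2, Foxk2, Foxp2 and Foxm1 were the 4 that read higher, and Foxc2, Foxd2, Foxk1, Foxo3, Foxo4 and Foxp1 the 6 that read lower in G2-EC-KO.

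More members had log2 changes below 0 than above. The count was 19 below and 8 above, so that 70.4% were below and 29.6% above, against 41.9% below and 58.1% above among all named genes tested. The median log2 change was -0.057 over the family and 0.041 over all named genes tested, with a median SE of 0.16 for a forkhead gene. Sizes were small, with 18 of 27 genes within 0.25 of 0 and 3 beyond 0.5. G2-EC-KO replicate 1 set the family median most: it was -0.20 without that array, -0.036 without G2-EC-KO replicate 2, -0.088 without control replicate 1 and -0.087 without control replicate 2. With normexp background correction the median was -0.0016. Foxd2, Foxf1, Foxi2, Foxn3 and Foxp4 then turned above 0 and Foxj3 below, so that fewer members were below 0. Over all probes tested the median was -0.0020, and 0.026 with normexp.

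**Figure D1:**
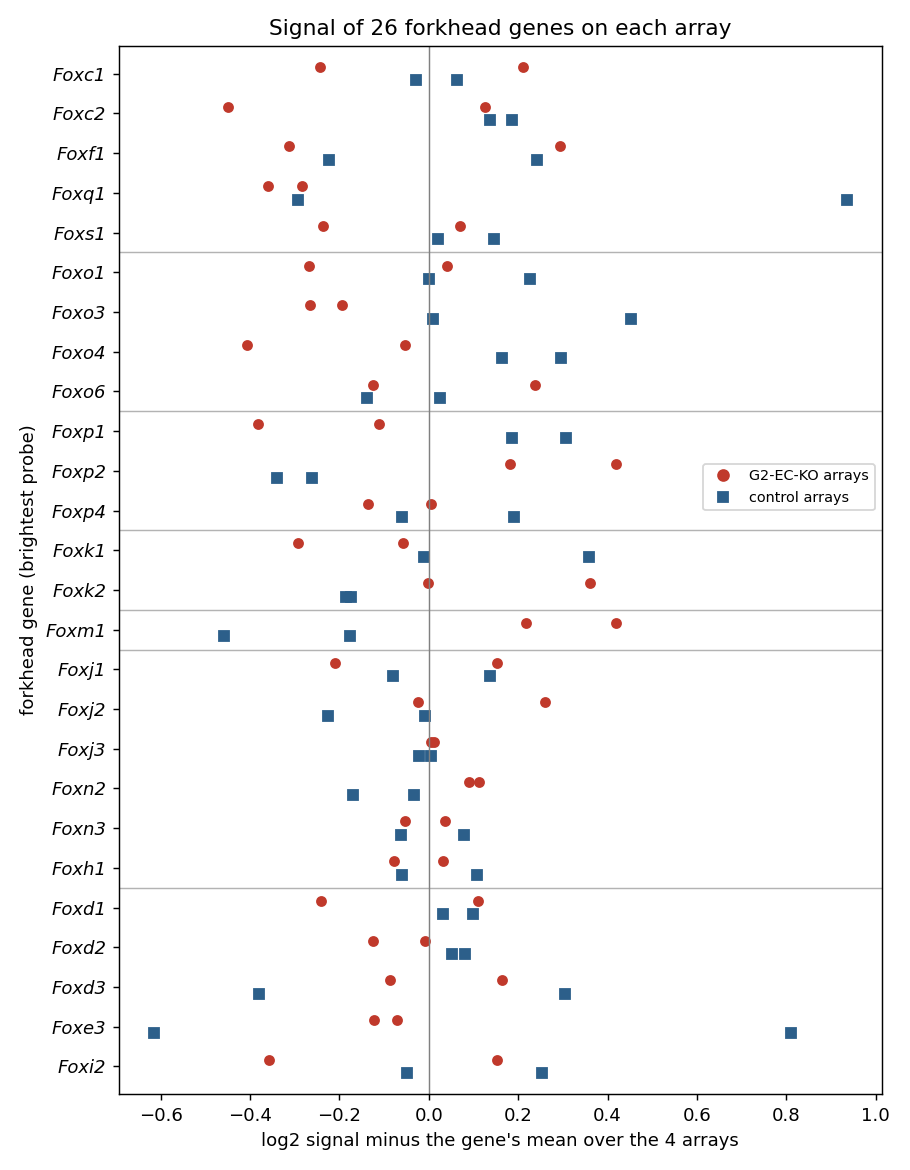
Signal of 26 tested forkhead genes on each array, as log2 signal minus the gene's own mean over the 4 arrays (x axis), with circles for the 2 G2-EC-KO arrays and squares for the 2 control arrays; grey lines separate subclasses. Foxm1, Foxp2, Foxk2 and Foxn2 have both circles to the right of both squares, and Foxp1, Foxo3 and Foxo4 are among those with both to the left.

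**Figure D2:**
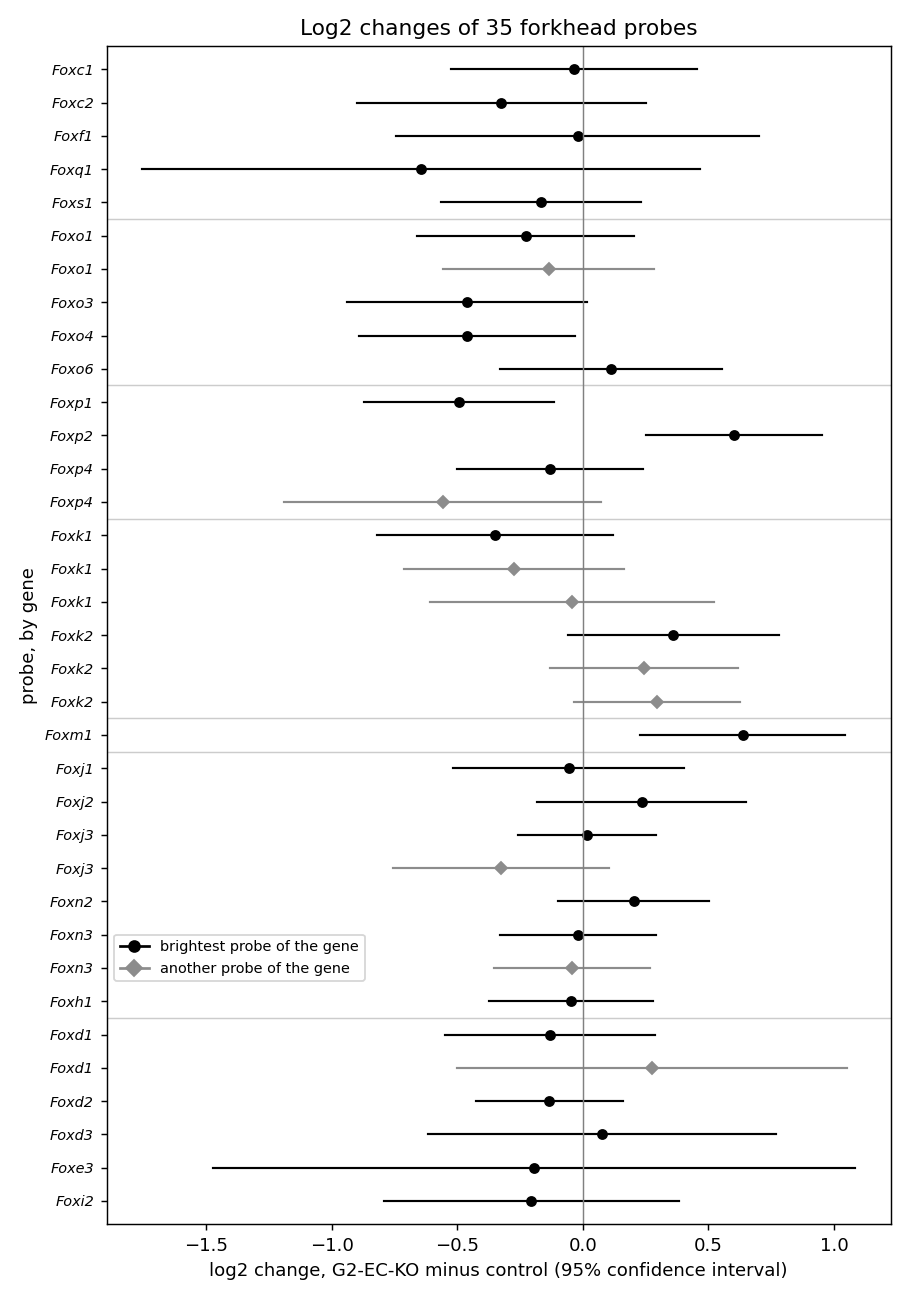
Log2 change of 35 tested forkhead probes, G2-EC-KO minus control (x axis), with the 95% confidence interval from limma as a line; black circles are the brightest probe of a gene and grey diamonds its other probes. The intervals of Foxp2, Foxm1, Foxp1 and Foxo4 leave out 0 before adjustment, and the 3 probes of Foxk2 lie on the right while those of Foxk1 lie on the left.

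Foxc1 and Foxc2, which are needed for arterial identity and lymphatic valves, were both well above background. Foxc1 read 2.74 and 2.28 in the G2-EC-KO pair, against 2.59 and 2.50 in the control pair. The control values lay between those of the G2-EC-KO arrays, and the log2 change was -0.034 (95% confidence interval -0.52 to 0.46). Foxc2 read 0.95 and 0.37 in the G2-EC-KO pair, against 0.96 and 1.01 in the control pair. Only G2-EC-KO replicate 2 was clearly lower, and the log2 change of -0.32 (SE 0.22; limma, adjusted p = 0.612) became -0.036 without that array.

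Foxf1, which is needed for the early vasculature, was added to the genes given by array after its values were seen. It read -3.93 and -3.32 in the G2-EC-KO pair, against -3.37 and -3.84 in the control pair, so that the groups interleaved. Its log2 change was -0.021 (95% confidence interval -0.74 to 0.70) and turned to 0.017 with normexp and 0.0068 with quantile normalization. Foxf2, known from brain pericytes, was well above background on 0 arrays. Foxs1, known among other cells from those around vessels, read 1.01 and 0.70 in the G2-EC-KO pair, against 1.08 and 0.96 in the control pair. The log2 change of Foxs1 was -0.17 (SE 0.15, limma, adjusted p = 0.684). It was -0.32 without G2-EC-KO replicate 1 and -0.012 without G2-EC-KO replicate 2.

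Foxq1, a repressor of epithelial genes, had the lowest log2 change of the family and a wide spread between the control arrays. It read -0.79 and -0.86 in the G2-EC-KO pair, against 0.43 and -0.80 in the control pair. Control replicate 1 alone was high, and the other 3 arrays lay close together. The log2 change of -0.64 (SE 0.42; limma, adjusted p = 0.607) became -0.028 without control replicate 1 and -1.26 without control replicate 2. Foxq1, Foxf2 and Foxc1 are neighbours on chromosome 13 with 0 protein-coding genes between them in RefSeq. Within this cluster Foxc1 and Foxq1 were well above background on all 4 arrays and Foxf2 on 0. On chromosome 8, where 1 protein-coding gene lies between Foxf1 and Foxc2, both were well above background on all arrays.

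Of the 4 FoxO factors, Foxo1, Foxo3 and Foxo4 had log2 changes below 0 and Foxo6 one above 0. Foxo1, the FoxO factor tied to quiescence of endothelial cells, read 3.59 and 3.28 in the G2-EC-KO pair, against 3.55 and 3.77 in the control pair. The groups overlapped, and the log2 change was -0.23 (SE 0.16; limma, adjusted p = 0.627), with -0.14 (SE 0.16) at its second probe. Without control replicate 2 it was -0.12, and without G2-EC-KO replicate 2 it was -0.074, with 0.029 at the second probe.

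Foxo3, which shares many targets with Foxo1, read -3.80 and -3.73 in the G2-EC-KO pair, against -3.08 and -3.52 in the control pair. Foxo4, an X-linked FoxO factor, read -4.77 and -4.42 in the G2-EC-KO pair, against -4.07 and -4.20 in the control pair. Both were lower on both G2-EC-KO arrays than on either control array. Their log2 changes were -0.46 (SE 0.18; limma, adjusted p = 0.526) for Foxo3 and -0.46 (SE 0.16; limma, adjusted p = 0.512) for Foxo4, and -0.68 and -0.53 without control replicate 2. Without control replicate 1 the change of Foxo3 was -0.24, and without G2-EC-KO replicate 1 that of Foxo4 was -0.28. Both lie close to the background, and normexp correction gave -0.25 for Foxo3 and -0.15 for Foxo4. Foxo6, known mainly from brain, had a log2 change of 0.11 (SE 0.17), which turned to -0.069 without G2-EC-KO replicate 1.

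Genes known from other work as FoxO targets did not move one way. Of 19 measured members of that list, 9 were higher and 10 lower, and 0 passed (limma, adjusted p, and 0 also at an unadjusted p under 0.05). Among all named genes tested, 58.1% had a log2 change above 0 and 8.18% an unadjusted p under 0.05 (limma). The median log2 change of the list was -0.019, and was 0.056 without control replicate 2 and 0.047 without G2-EC-KO replicate 2. The members with the smallest p were the catalase gene Cat, at 0.55 (SE 0.29), the stress sensor gene Sesn1, at 0.16 (SE 0.11), and the mTOR complex gene Rictor, at -0.16 (SE 0.11). Cat read 1.60 and 1.93 in the G2-EC-KO pair, against 0.84 and 1.60 in the control pair, and was 0.17 without control replicate 1. The member with the highest signal, Txnip, which encodes a thioredoxin inhibitor, gave 0.037 (SE 0.16).

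Of the genes of the PI3K and AKT arm and of FoxO cofactors, 6 were higher and 13 lower of 19, and 0 passed (limma, adjusted p). At an unadjusted p under 0.05 (limma) the count was also 0, against 8.18% of all named genes tested. The groups did not overlap for 2 higher and 7 lower members, against 30.4% higher and 16.7% lower of all named genes tested, of which 58.1% had a log2 change above 0. The median was -0.067, with -0.043 without G2-EC-KO replicate 1 and -0.031 with normexp. The smallest p belonged to Sgk1, which encodes a kinase that phosphorylates FoxO factors as AKT does, and which was also the member with the highest signal. It read 6.94 and 7.28 in the G2-EC-KO pair, against 6.84 and 6.62 in the control pair, a log2 change of 0.38 with an SE of 0.17 (limma, adjusted p = 0.544) that was 0.21 without G2-EC-KO replicate 2. Next came Stk4, a kinase of the Hippo pathway, at -0.23 (SE 0.13), and Akt2 at -0.27 (SE 0.17). Stk4 was -0.13 without control replicate 1, and Akt2 was -0.060 without G2-EC-KO replicate 2 and -0.47 without G2-EC-KO replicate 1.

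The FoxP factors, which bind DNA as dimers and mostly repress, held both a member at 0.60 and a member at -0.49. Foxp1, known from heart development and endothelial cells, read 1.75 and 1.48 in the G2-EC-KO pair, against 2.04 and 2.17 in the control pair. Both G2-EC-KO arrays were lower than both control arrays. The log2 change was -0.49 with an SE of 0.14 and a 95% confidence interval of -0.87 to -0.12 (limma, adjusted p = 0.462). It stayed between -0.63 and -0.36 when any of the arrays was left out, with -0.43 without control replicate 2. With normexp it was -0.48.

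Foxp2, known from speech circuits and lung, went the other way. It read -2.92 and -3.16 in the G2-EC-KO pair, against -3.60 and -3.68 in the control pair, again without overlap. The log2 change was 0.60 with an SE of 0.13 and a 95% confidence interval of 0.25 to 0.95 (limma, adjusted p = 0.389). It was between 0.48 and 0.72 when any of the arrays was left out, 0.56 without control replicate 2 and 0.46 with normexp. This probe was dim, with a mean log2 signal of -3.34 over the arrays, against -3.53 for Foxo3. A second Foxp2 probe was well above background on 0 arrays. Foxp4, a partner of Foxp1 and Foxp2 in lung and heart, gave -0.13 (SE 0.14) and -0.56 (SE 0.24) at its probes, and with normexp these were 0.066 and -0.15. The second was -0.24 without G2-EC-KO replicate 2 and -0.87 without G2-EC-KO replicate 1. Foxp3, the factor of regulatory T cells, was well above background on 0 arrays. Of 12 lymphocyte markers, which include T cell and B cell genes, 7 were well above background on all arrays and 3 on 0 arrays. These counts do not show whether T cells were present.

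Of 14 tested members with a promoter window to search, Foxp1 is the 1 whose windows hold letters of the family's own site. Tested members without a window were not searched. RefSeq gives 3 gene starts for Foxp1 on chromosome 6 (GRCm38.p6, minus strand). The 250 bases before each are shown because all of them hold TAAACA or its reverse complement TGTTTA, marked in capitals. 
Foxp1 at chr6:99520994-99521243: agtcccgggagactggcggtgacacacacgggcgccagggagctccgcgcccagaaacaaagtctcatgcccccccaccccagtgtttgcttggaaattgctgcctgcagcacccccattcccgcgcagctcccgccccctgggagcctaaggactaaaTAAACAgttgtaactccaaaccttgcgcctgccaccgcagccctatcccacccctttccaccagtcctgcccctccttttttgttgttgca
Foxp1 at chr6:99266516-99266765: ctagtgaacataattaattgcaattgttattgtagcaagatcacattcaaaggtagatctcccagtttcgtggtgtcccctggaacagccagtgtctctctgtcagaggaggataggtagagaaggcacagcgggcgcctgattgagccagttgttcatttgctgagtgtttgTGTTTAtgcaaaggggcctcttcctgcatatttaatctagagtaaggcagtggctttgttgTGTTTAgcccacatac
Foxp1 at chr6:99028299-99028548: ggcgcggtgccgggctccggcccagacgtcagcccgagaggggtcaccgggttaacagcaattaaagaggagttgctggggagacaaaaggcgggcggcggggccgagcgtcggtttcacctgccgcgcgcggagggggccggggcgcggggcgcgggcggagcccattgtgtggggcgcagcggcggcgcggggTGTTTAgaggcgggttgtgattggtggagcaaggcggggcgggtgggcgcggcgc
The middle window holds 2 matches and the others hold 1 each.

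These letters were searched on both strands in the 250 bases before every start in the RefSeq table. They occur in 12.0% of 32851 windows. The table matched 28 forkhead genes with 33 windows, of which 14 genes with 16 windows were tested here, and Foxp1 was the 1 tested gene with a match. Among forkhead genes that were not tested, Foxa1 and Foxp3 had a match. The GATA letters AGATAA or TGATAA occur in 16.6% of all windows and in 0 of the 16 windows of tested forkhead genes. Over all 33 forkhead windows 3 held them, in Foxa2 and Foxp3, which were not tested. A match describes the letters only, and which of the Foxp1 starts is used in these cells was not measured.

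Foxk1 and Foxk2, close relatives that regulate glycolysis and autophagy genes, had log2 changes of opposite sign at their 6 probes, below 0 for Foxk1 and above 0 for Foxk2. Foxk1 read -2.63 and -2.39 in the G2-EC-KO pair, against -2.35 and -1.98 in the control pair. The nearest arrays of the groups nearly met, and the log2 change was -0.35 (SE 0.18; limma, adjusted p = 0.561), with -0.27 (SE 0.17) and -0.043 (SE 0.21) at its other probes, of which the first was -0.096 without control replicate 2 and the last turned to 0.24 without G2-EC-KO replicate 2. Foxk2 read 0.48 and 0.85 in the G2-EC-KO pair, against 0.31 and 0.30 in the control pair. The control arrays were alike, G2-EC-KO replicate 2 was the highest, and the log2 change was 0.36 (SE 0.16; limma, adjusted p = 0.542), with 0.24 (SE 0.14) and 0.29 (SE 0.12) at its other probes. It was 0.18 when G2-EC-KO replicate 2 was left out. Without control replicate 2 the changes were -0.16 for Foxk1 and 0.35 for Foxk2. The difference between the changes of these genes was not tested.

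Foxm1, the activator of G2 and mitosis genes, had the highest log2 change of the family. It read -0.76 and -0.56 in the G2-EC-KO pair, against -1.16 and -1.44 in the control pair. Both G2-EC-KO arrays were above both control arrays. The log2 change was 0.64 with an SE of 0.15 and a 95% confidence interval of 0.23 to 1.04 (limma, adjusted p = 0.410). It was between 0.50 and 0.78 when any of the arrays was left out, with 0.50 without control replicate 2 and 0.60 with normexp.

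The genes that FoxM1 is known to activate also read higher. Of 18 measured target genes, 18 had log2 changes above 0, 17 of them at an unadjusted p under 0.05, against 6.13% of all named genes tested, and 0 passed the adjusted threshold (limma). The counts and medians of this list include Cdc25c, which passed the filter through the G2-EC-KO arrays alone, so that its direction was fixed in advance. Cdc25c is also among the 17 at an unadjusted p under 0.05 (limma), where it gives no support. The other members, 17 genes, were well above background on all arrays. The groups did not overlap for 17, all higher, against 30.4% of all named genes tested. The median log2 change was 1.56, 1.42 without control replicate 2, and 1.29 with normexp, and it ran from 1.17 without G2-EC-KO replicate 2 to 1.98 without G2-EC-KO replicate 1. Earlier results of these data on cell cycle genes were known when the list was chosen, so it is no independent evidence of that direction. The smallest p belonged to the mitotic kinase gene Aurkb, at 1.78 (SE 0.27), the cyclin gene Ccnb1, at 1.68 (SE 0.29), and the CDK subunit gene Cks1b, at 1.11 (SE 0.21; limma, adjusted p = 0.387 for all of them). Birc5, which encodes survivin and had the highest signal of the list, read 1.60 and 2.56 in the G2-EC-KO pair, against 0.63 and 0.17 in the control pair. Its values show the spread of the list, with G2-EC-KO replicate 2 above replicate 1. The phosphatase gene Cdc25c was well above background on both G2-EC-KO arrays and on neither control array, and was at least 1.83-fold higher in the samples with that label, counting from the lowest signal well above background. No p-value is given for it, since the filter fixed its direction. The member that did not reach an unadjusted p under 0.05 (limma) was the checkpoint kinase gene Bub1, at 0.016 (SE 0.13).

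FoxM1 acts with the MuvB core and B-Myb. The list read here holds their genes and also Rbl1, Rbl2, E2f4, Tfdp1 and Tfdp2, which belong to the DREAM complex rather than to that core. Of its 11 genes 10 were higher and 1 lower, with 4 at an unadjusted p under 0.05 and 0 past the adjusted threshold (limma). Among all named genes tested, 58.1% had a log2 change above 0 and 6.13% were higher at an unadjusted p under 0.05. The median was 0.10, and between 0.15 and 0.26 when any of the arrays was left out. Lin9, a subunit of the core, gave 0.61 (SE 0.13), Mybl2, which encodes B-Myb, 0.88 (SE 0.18), and Tfdp1, an E2F partner, 0.46 (SE 0.14). The brightest member, the histone chaperone gene Rbbp4, gave 0.092 (SE 0.11), or 0.032 without G2-EC-KO replicate 1.

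Marker lists are read against the 58.1% of all named genes tested that had a log2 change above 0. Of 9 general cell cycle markers 8 were higher, each of them at an unadjusted p under 0.05 (limma) and without overlap of the groups. Of all named genes tested, 6.13% were higher at such a p and 30.4% were higher without overlap. The median log2 change over the cell cycle list was 1.05. Bright members weigh most in a sum, and this list had a summed level, in multiples of the 75th percentile, of 88.0 and 84.0 in the G2-EC-KO pair, against 76.1 and 76.1 in the control pair. Cardiomyocyte markers were higher in 12 of 12, with summed levels of 104 and 144 in G2-EC-KO against 101 and 94.7 in control, and fibroblast markers in 9 of 10, with 126 and 126 against 96.6 and 122. Macrophage and monocyte markers were higher in 10 of 10, with 8.85 and 7.85 against 5.89 and 8.67. Of 4 tested mesothelial and epithelial markers 3 were higher, with sums over the whole list of 8.01 and 7.96 against 8.24 and 7.80. The median log2 change of those 4 was 0.71, and 3 were well above background on all arrays. At an unadjusted p under 0.05 (limma) 2 of them were higher, against 6.13% of all named genes tested. Endothelial markers were higher in 6 of 12, with 538 and 559 against 527 and 574, and pericyte and smooth muscle markers in 2 of 10, with 342 and 245 against 330 and 297. Lymphocyte markers were well above background on all arrays in 7 of 12 and higher in 2 of 8 tested, with sums of 0.722 and 0.671 against 1.09 and 0.535. The part of other cell types in the values of Foxm1, Foxp1 or any other member was not tested.

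**Figure D3:**
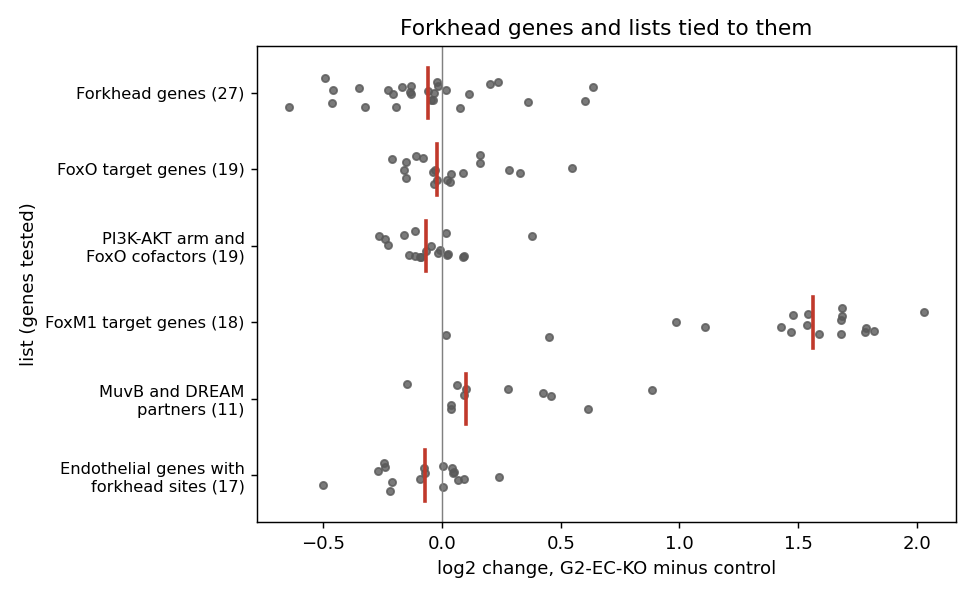
Log2 change, G2-EC-KO minus control (x axis), of each tested gene (grey points) among the forkhead genes and 5 lists tied to them, with the median of each as a red line; vertical scatter within a row has no meaning. The 18 FoxM1 target genes, which include Cdc25c with a direction fixed by the filter, have a median of 1.56. The medians of the forkhead genes, FoxO targets, PI3K-AKT genes and endothelial genes lie within 0.1 of 0.

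Of 17 measured endothelial genes that carry forkhead or combined FOX:ETS sites, 8 were higher and 9 lower, with 0 past the adjusted threshold (limma). The groups did not overlap for 6 of them, all lower in G2-EC-KO, against 16.7% of all named genes tested that were lower without overlap. The median log2 change was -0.071, and ran from -0.13 without G2-EC-KO replicate 1 to -0.029 without control replicate 2. At an unadjusted p under 0.05, 1 member was lower, against 2.06% of all named genes tested. That member was Nos3, which encodes endothelial nitric oxide synthase, and its log2 change was -0.50 (SE 0.14; limma, adjusted p = 0.463). The angiopoietin receptor gene Tek gave -0.24 (SE 0.11) and the adhesion gene Pecam1 -0.24 (SE 0.13), or -0.11 without G2-EC-KO replicate 2. The VEGF receptor gene Flt1, with the highest signal, gave 0.0066 (SE 0.11).

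In the FoxJ, FoxN and FoxH subclasses, Foxj3, Foxn3 and Foxh1 had log2 changes near 0. Foxj3, a factor of muscle and germ cells, read 1.92 and 1.91 in the G2-EC-KO pair, against 1.91 and 1.88 in the control pair. All 4 arrays lay together, with a log2 change of 0.016 (95% confidence interval -0.26 to 0.29), while a dim second probe gave -0.32 (SE 0.16), which was -0.065 with normexp, -0.13 without G2-EC-KO replicate 2 and -0.51 without G2-EC-KO replicate 1. Foxn3, a repressor linked to the DNA damage checkpoint, read 1.78 and 1.87 in the G2-EC-KO pair, against 1.78 and 1.92 in the control pair, with a log2 change of -0.018 (95% confidence interval -0.33 to 0.29) and -0.043 (SE 0.12) at its other probe. Foxh1, the Smad2 partner of Nodal signalling, read 1.51 and 1.62 in the G2-EC-KO pair, against 1.53 and 1.70 in the control pair, a log2 change of -0.047 (95% confidence interval -0.37 to 0.28). Its groups overlapped, as did those of Foxn3.

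Foxn2 read 0.30 and 0.32 in the G2-EC-KO pair, against 0.18 and 0.041 in the control pair, without overlap, and its log2 change was 0.20 (SE 0.11; limma, adjusted p = 0.575), or 0.13 without control replicate 2. Foxj2 read 1.07 and 1.35 in the G2-EC-KO pair, against 0.86 and 1.08 in the control pair, which overlapped, and its log2 change was 0.23 (SE 0.16; limma, adjusted p = 0.611). It was 0.093 when G2-EC-KO replicate 2 was left out. Foxj1, the master factor of motile cilia, was well above background on all arrays with a log2 change of -0.057 (SE 0.17). Of 8 ciliated cell markers 4 were so too, and Dnah5, Rsph1, Spag6 and Ccdc39 were so on 0 arrays.

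Members known from embryonic and organ-specific tissues were tested in part. Foxd1, a factor of kidney stroma, gave -0.13 (SE 0.16) and, at a dimmer probe, 0.28 (SE 0.29), which turned to -0.14 without control replicate 1. Foxd2 gave -0.13 (SE 0.11) and turned to 0.039 with normexp, and Foxd3, a neural crest factor, gave 0.076 (SE 0.26). The lens factor Foxe3 had the widest interval of the tested genes, with a log2 change of -0.20 (95% confidence interval -1.47 to 1.08). Its array values, given after they were seen, were -4.91 and -4.96 in the G2-EC-KO pair, against -5.46 and -4.03 in the control pair. Foxi2 gave -0.21 (SE 0.22).

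The 12 genes that were not tested were Foxa1, Foxa2, Foxa3, Foxb1, Foxb2, Foxd4, Foxe1, Foxf2, Foxi1, Foxl2, Foxn1 and Foxp3. They include the liver and endoderm factors of the FoxA subclass, the thyroid factor Foxe1, the ovary factor Foxl2 and the thymus factor Foxn1. Of these, 10 were well above background on 0 arrays, and Foxb1 and Foxn1 on 1 each. A signal below that limit bounds a level and does not show that the transcript is absent.

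The background correction changed the dim members most. Normexp was run with an offset of 50 added to every spot, which by itself makes log2 changes of dim probes smaller. Log2 changes of Foxo3 and Foxo4, which read below -3 on every array, shrank with normexp, whereas those of Foxm1, Foxp1, Foxk2 and Foxo1 moved by less than 0.05. Foxp2, also dim with a mean log2 signal of -3.34, went from 0.60 to 0.46.

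**Figure D4:**
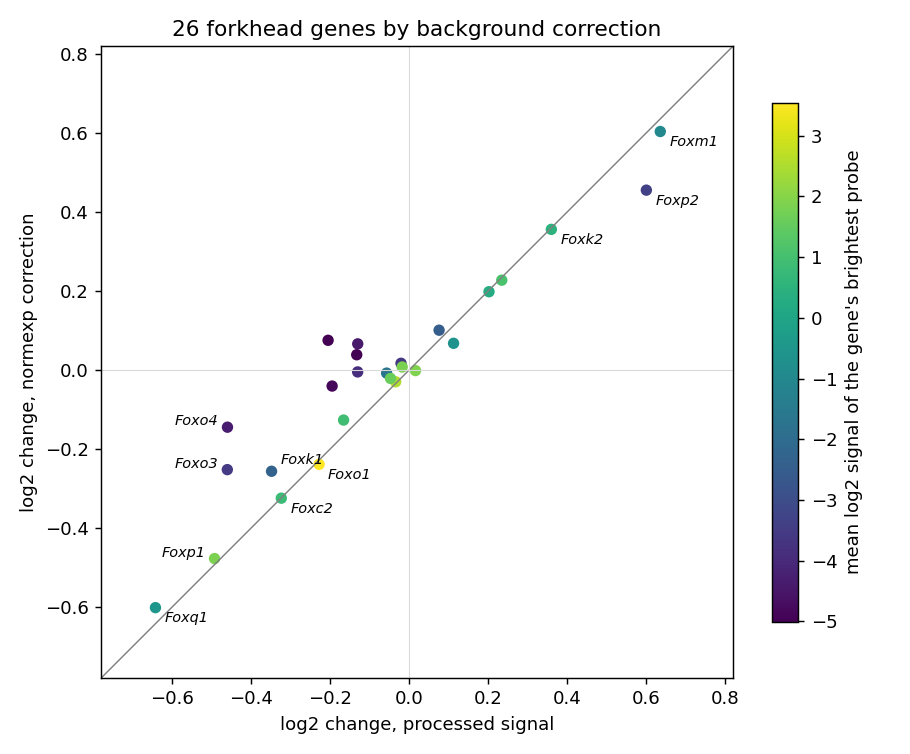
Log2 change of 26 tested forkhead genes with the processed signal (x axis) and with normexp background correction (y axis), coloured by the mean log2 signal of the brightest probe; the line marks equality. Genes with bright probes lie close to the line, while the dim Foxo3 and Foxo4 move from -0.46 to -0.25 and -0.15. Foxp2, also dim, moves from 0.60 to 0.46.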

How the data were processed

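Deposited scanner files give the intensity of each spot, not logged, which the authors' Feature Extraction software (version 10.7.3.1 per the file headers, 10.5 per the submitters' processing notes) subtracted for background and detrended within each array. Control spots and 87 to 101 outlier spots an array were left out. The 75th percentile of each array (1288 and 1181 in G2-EC-KO, 1411 and 1438 in control) was divided out before log2, and spots of a probe were averaged. A probe is well above background where at least 50% of its spots are flagged so. RefSeq accessions named 26933 of 41174 probes.

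The comparison used limma 3.58.1 (R 4.3.3) with group as the only term, two-sided, with Benjamini-Hochberg adjustment over the 26893 probes tested. An exact permutation test of these groups cannot give a p below 0.333. Alternatives were normexp (offset 50), quantile normalization, median centring, other filters, an intensity trend, a replicate block, the mean of a gene's probes, each array left out and the deposited value table, whose intensity values equal the median spot signal minus local background plus 16.

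Genes given by array are those well above background on all 4 arrays and among the 10 with the smallest p or the 10 with the highest signal. Of each list, the 3 members with the smallest p and the one with the highest signal are named. The values of 1 tested member, which stays in the counts and medians over the family, are not reported here. The members and lists were chosen with earlier results of these data known. The 4 arrays lay on 1 slide, G2-EC-KO at positions 3 and 4 and control at 1 and 2, so position and group cannot be told apart. Listed genes with no probe matched by accession were not analysed here (Irs2, Skp2, Prc1, Tal1, Cd68 and Rrm2).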

Additional observations from a re-analysis of the deposited data

How the results depend on the processing

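The count of 0 forkhead genes past the threshold was the same under all 13 alternatives, with a smallest adjusted p (limma) between 0.164, without G2-EC-KO replicate 1, and 0.754, without control replicate 2. Over all probes, 1 passed as reported, 1 with the deposited value table, 0 without a filter on dim probes, with the filter on all 4 arrays, with an intensity trend and with the replicate block, 2 with normexp, quantile normalization or median centring, and 0 to 8 when an array was left out. Same-numbered arrays correlated at 0.068 in their deviations from group means. With 2 arrays in each group this value cannot show whether samples were paired, and the labels state no pairing. With the replicate block 0 forkhead genes passed, with a median of -0.057. Of 318 values of single genes under an alternative, 27 turned in sign, in 13 of 26 genes, most of them near 0. With normexp, run on the median spot signal and chosen after seeing the data since the planned mean spot signal was not used here, the values that turned were 0.039 for Foxd2, 0.017 for Foxf1, 0.075 for Foxi2, -0.0016 for Foxj3, 0.0075 for Foxn3 and 0.066 for Foxp4. Foxf1 gave 0.0068 with quantile normalization, and Foxn3 gave 0.015 with the deposited value table and 0.0026 with median centring. With the mean of probes Foxd1 gave 0.072 and Foxj3 -0.15. When an array was left out, ranges that crossed 0 were -0.26 to 0.19 for Foxc1, -0.31 to 0.046 for Foxd1, -0.27 to 0.42 for Foxd3, -0.91 to 0.52 for Foxe3, -0.32 to 0.28 for Foxf1, -0.13 to 0.037 for Foxh1, -0.46 to 0.050 for Foxi2, -0.24 to 0.12 for Foxj1, -0.088 to 0.053 for Foxn3 and -0.069 to 0.29 for Foxo6. The causes were not tested. Signal over background limits the members that read below -3.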

Other observations

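Single arrays gave signals for members that entered no comparison, chosen after their values were seen. Foxn1, the factor missing in nude mice, was well above background on control replicate 1 alone, where it read -4.17, while it read -6.31 and -6.10 in the G2-EC-KO pair, against -6.99 on control replicate 2. Foxb1, a factor of the embryonic brain, was well above background on control replicate 2 alone, at -5.40, while it read -8.03 and -8.21 in the G2-EC-KO pair, against -7.77 on control replicate 1. The second Foxp2 probe, below the limit on all arrays, read -6.47 and -6.42 in the G2-EC-KO pair, against -7.51 and -7.96 in the control pair.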
